A study of Homo sapiens with 15 samples.

Results

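The genes described here are the RNA-binding motif (RBM) genes of the deposited table, a set of 36 genes out of 13056. They were taken by symbol: RBM followed by a digit, X or S, without hyphenated symbols and without the RBMY genes. The rule left out 4 other rows whose symbols start with RBM, which name antisense RNAs or a read-through transcript. The cells were HEK293T, a human embryonic kidney line, with a short hairpin RNA against HDAC1, PABPN1, PCBP2, SF3B4, U2AF2 or ZNF384 (2 libraries each), or with a control hairpin (shControl, 3 libraries, genotype given as WT). No time point, dose or selection is given, and all 15 libraries come from this 1 line. The measured quantity was PDUI, an index of how much the distal poly(A) site is used, which runs between 0.001 and 1. It estimates which share of a message is cleaved at the far, or distal, poly(A) site, so that a high value stands for the longer 3' end and a low value for the shorter one.

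RBM proteins carry an RNA recognition motif, a small fold that binds single-stranded RNA. The name is shared by proteins with different jobs: subunits of the spliceosome, regulators of alternative splicing, adaptors of the m6A methyltransferase, partners of the nuclear exosome, ribosome assembly factors and proteins that control the life of messages in the cytoplasm. Where a message is cleaved and polyadenylated sets the length of its 3' untranslated region, and with it the sites for microRNAs and RNA-binding proteins. The targeted genes act in nuclear poly(A) binding (PABPN1), in branch site and polypyrimidine tract recognition (SF3B4 and U2AF2), in binding of C-rich RNA (PCBP2), in histone deacetylation (HDAC1) and in transcription (ZNF384).

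Fractions were deposited without read counts, so the depth behind them is unknown. Of the 36 RBM genes, 34 had a value in all 15 libraries, while RBM43 lacked 2 values and RBM47 lacked 1. Over the complete genes of the whole table, the mean PDUI lay between 0.533 and 0.585 in the knockdown libraries, against 0.522, 0.56 and 0.561 in shControl replicates 1, 2 and 3. The library means over the complete RBM genes were between 0.493 and 0.542 in the knockdowns, against 0.476, 0.505 and 0.523 in shControl, so that shControl replicate 1 was the lowest on both counts. The 3 shControl libraries have nuc in their names and the 12 knockdown libraries do not, while nuclear RNA and total RNA are both mentioned in the labels. If nuc marks another preparation, its effect cannot be told apart from that of the knockdown in any comparison with shControl. PDUI does not give the amount of RNA, so neither the knockdowns nor marker genes of the line could be checked.

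The annotated ends of the messages were read first, because they bear on what a distal site is for each gene. In GENCODE release 29 (GRCh38), 35 of the 36 transcripts were found, 16 of them in the same version as in the table, and the one not found was that of RBMXL1. Their last exons were between 242 bases (RBM6) and 13247 bases (RBM28) long, with a median of 2005, against 1372 over all table transcripts found. Transcript sequences were searched, on the sense strand, for the most common poly(A) signal word, AATAAA, and its frequent variant ATTAAA, where matches of the 2 words may overlap. AATAAA stood in the last 50 bases of 25 of 35 RBM transcripts, against 60.65% of all table transcripts, and either word in 29 of 35, against 74.61%. Over the whole last exon the RBM transcripts held a median of 4 words and all table transcripts 2. A word is a match of letters and not a measured cleavage site, and the pair of sites behind each PDUI value is not known.

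The 30 bases around the AATAAA nearest to the end are shown for 5 of the 7 genes whose PDUI differed between groups below. These stretches mark the annotated end, and whether a high PDUI refers to that end is not known. Each is written 5' to 3' on the sense strand of the GENCODE transcript, with AATAAA in capitals.
RBM33, plus strand of chr7:155781448-155781477: ggaagtcgtgttAATAAAaccctgcagttt
RBM12, minus strand of chr20:35648944-35648973: aacttgtcaaaaAATAAAacaggctgatgc
RBM4B, minus strand of chr11:66665003-66665032: aattttttgacaAATAAAtgtttctaacac
RBM17, plus strand of chr10:6117406-6117435: attttaaatttcAATAAAaattaaaaatta
RBM23, minus strand of chr14:22893210-22893239: ctatattagattAATAAAaagatgtgtgtg
In these 5 messages the word began between 22 and 40 bases before the annotated end. In RBM17 the variant ATTAAA follows 7 bases after the start of AATAAA. For RBM3 neither word was in the last 50 bases of its GENCODE transcript, and as for RBM12 and RBM23 this transcript is an earlier version than the one in the table.

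**Figure D1:**
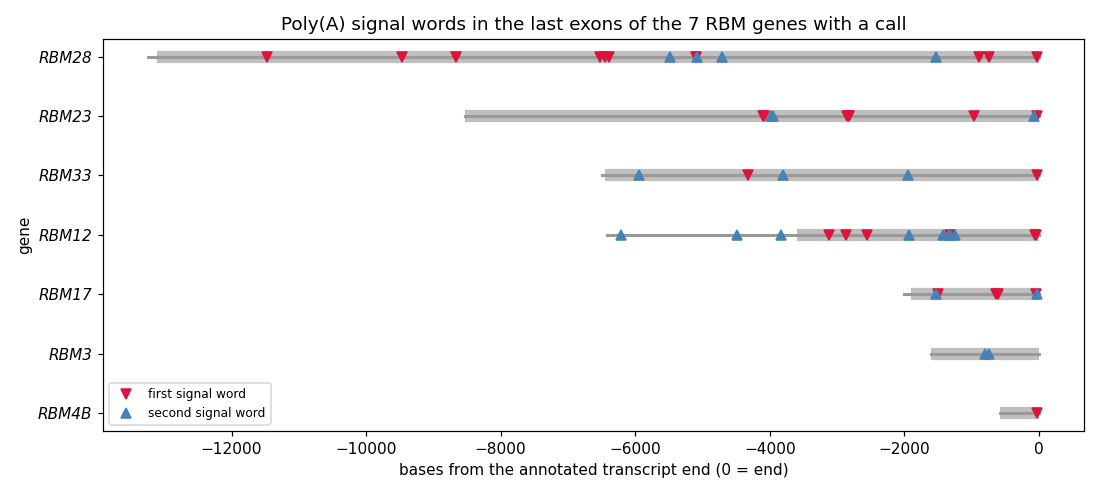
Last exons of the 7 RBM genes with a call against shControl or among the knockdowns, drawn in bases from the annotated end at 0, with the untranslated part as a wide bar. Downward triangles (the first signal word of the legend) are AATAAA and upward triangles (the second) ATTAAA; RBM28 has 15 words over 13247 bases and RBM4B has 1 over 581.

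The number of signal words ahead of that end differed widely among the 7 genes, as the map of signal words shows. RBM28 held 11 AATAAA and 4 ATTAAA, the farthest 11479 bases before the end. RBM12 held 6 and 8 over a last exon of 6420 bases, of which 3599 are untranslated, RBM23 held 7 and 3 over 8528 bases, and RBM17 held 4 and 2 over 2005 bases. RBM33 held 2 and 3 over 6493 bases, and RBM3 held 2 ATTAAA, at 802 and 744 bases before the end. RBM4B had AATAAA once, at its end, and no ATTAAA. Across the 35 RBM genes, the length of the last exon and mean PDUI in shControl had a Spearman rho of 0.013, against 0.141 across 12656 genes of the table, which are values from the same 3 libraries and not independent points.

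The RBM genes covered the whole range of PDUI. In shControl the means lay between 0.02 for RBM23 and 1 for RBM41, RBM45, RBMS1 and RBMX, with a median of 0.488, against 0.573 over all genes. Means under 0.1 were found for 5 of the 36 RBM genes (13.9%), against 8.9% of all genes, and means over 0.9 for 8 (22.2%), against 16% of all genes. RBMS1 was at 1 in every library. Over all 15 libraries the highest and lowest value of a gene lay less than 0.1 apart in 12 RBM genes and at least 0.2 apart in 19. The widest range was that of RBM24, a muscle RNA-binding protein, between 0.24 and 0.85, and its shControl libraries alone read 0.24, 0.36 and 0.75.

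**Figure D2:**
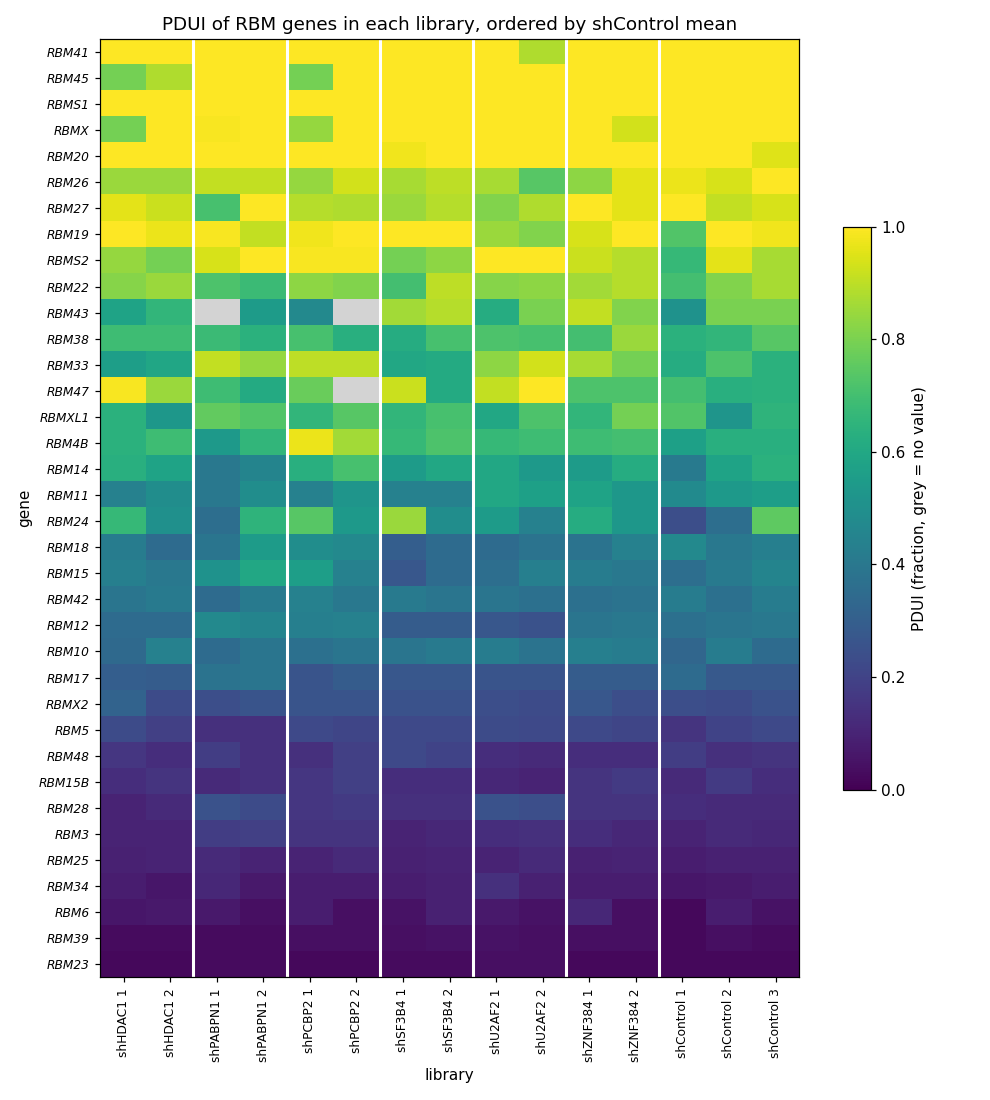
PDUI (colour, 0 to 1) of the 36 RBM genes in each of the 15 libraries, with genes ordered by their shControl mean and grey for a missing value. Rows run between 1 in shControl for RBM41, RBM45, RBMS1 and RBMX at the top and 0.02 for RBM23 at the bottom, and RBM33, RBM4B, RBM12 and RBM28 show blocks of libraries that stand off from shControl.

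Each knockdown was set against shControl by limma over the whole table, with a call at a Benjamini-Hochberg adjusted p under 0.05 over all genes tested in that comparison. In shPABPN1 5 of 35 tested RBM genes rose and none fell, where 3.99% of all tested genes rose and 0.725% fell (4.72% called). In shU2AF2 3 of 36 rose and 1 fell, where 5.88% of all rose and 1.39% fell (7.27% called). In shPCBP2 4 of 34 rose and none fell, against 1.05% and 0.121% of all genes (1.17% called). In shSF3B4 1 of 36 rose and 1 fell, against 4.26% and 1.16% (5.42% called). In shHDAC1 limma called none of 36, against 0.0243% of all genes. An unadjusted p under 0.05 was found there for 4 of 36, against 5.98% of all genes. In shZNF384 limma also called none of 36, where 1.44% of all genes rose and 0.0638% fell (1.5% called). An unadjusted p under 0.05 was found there for 2 of 36, against 13.8% of all genes. The 6 comparisons share their shControl libraries, so the calls are not independent of one another.

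The 15 calls fell on 6 genes: RBM28, RBM33 and RBM12 in 3 knockdowns each, RBM23 also in 3, RBM3 in 2 and RBM4B in 1. Most RBM genes stayed near their shControl level: the median absolute difference over the tested RBM genes was between 0.0192 (shHDAC1) and 0.0375 (shPCBP2), against 0.0317 to 0.0483 over all genes. The median signed difference was between 0 (shHDAC1) and 0.0183 (shPCBP2 and shZNF384), against −0.0093 (shPABPN1) to 0.0233 (shZNF384) over all genes. A moderated F-test among the 6 knockdowns, which does not use the shControl means, called 7 of 34 RBM genes, the 6 above and RBM17, where 12.9% of all genes were called. Each knockdown was also set against the mean of the other 5, a contrast that leaves out the shControl means. The shControl libraries still enter its estimate of the spread. In shPABPN1 5 of 34 RBM genes were higher and 1 lower, where 4.19% and 7.05% of all genes were (11.2% called), and in shHDAC1 4 were lower, where 5.29% were (5.84% called). In shSF3B4 1 was higher and 4 lower, where 3.59% and 3.39% were (6.99% called), and in shU2AF2 2 were higher and 1 lower, where 4.46% and 2.03% were (6.49% called). In shPCBP2 2 were higher, where 0.724% were (1.39% called). In shZNF384 limma called none, where 0.419% were higher (0.646% called). An unadjusted p under 0.05 was found there for 4 of 34 RBM genes, against 12.4% of all genes. These contrasts share all 12 knockdown libraries. With only the libraries of the 2 groups compared in the fit, limma called 3 RBM genes in shU2AF2 and none in the other 5 comparisons. The share of all genes called in that fit was not counted.

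**Figure D3:**
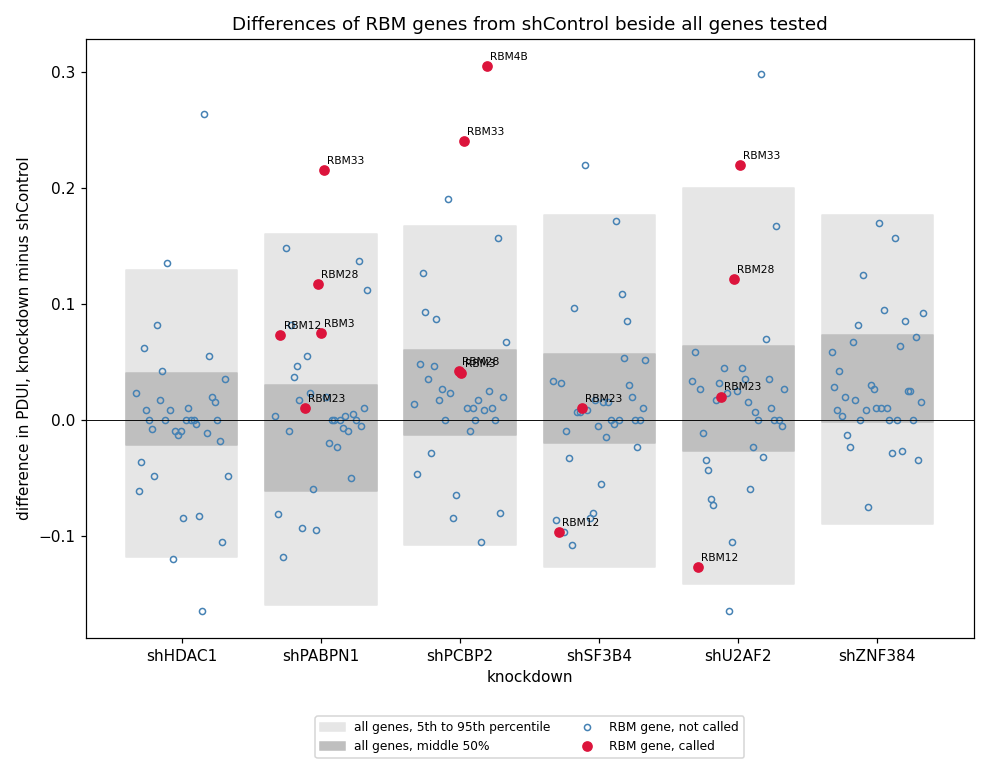
Difference in PDUI, knockdown minus shControl, of each tested RBM gene (points, alphabetical within a knockdown) over the range of all tested genes, with percentiles 25 to 75 in dark grey and 5 to 95 in light grey. Filled points are the 15 calls, the largest being RBM4B in shPCBP2 at 0.305 and RBM33 between 0.215 and 0.24 in shPABPN1, shPCBP2 and shU2AF2; RBM12 lies at −0.097 in shSF3B4 and −0.127 in shU2AF2.

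Counts depended on single libraries. The share of all genes called without each library was not counted, so whether these changes are particular to the RBM genes was not tested. Without shControl replicate 1 limma called 8 RBM genes in shPABPN1, adding RBM17 (0.105, adjusted p = 0.00142), RBM5 (−0.07, adjusted p = 0.0172) and RBM14 (−0.185, adjusted p = 0.0448), and 5 in shU2AF2, adding RBM19 (−0.16, adjusted p = 0.0156). Other single libraries also added calls in shU2AF2. RBM26 was called without shU2AF2 replicate 1 or either shZNF384 library, RBM41 without shU2AF2 replicate 1 and RBM34 without shU2AF2 replicate 2. RBM47 was called without either shSF3B4 library and RBMS2 without shControl replicate 2. The calls of RBM26 and RBM41 without shU2AF2 replicate 1, and of RBM34 without replicate 2, rest on the 1 shU2AF2 library left. RBM27 was called in shPABPN1 without shPABPN1 replicate 2 (−0.24, adjusted p = 0.0125) and RBM45 in shPCBP2 without shPCBP2 replicate 2 (−0.21, adjusted p = 0.0228), each resting on the 1 library left. Without shPABPN1 replicate 1 there were 2 calls in shPABPN1, and without shControl replicate 3 there were 3. In shSF3B4 there was 1 call without either shSF3B4 library or without shControl replicate 2 or 3. In shPCBP2 no call was left without shPCBP2 replicate 1 or without shControl replicate 1 or 3, 1 without either shSF3B4 library, and 2 without shPCBP2 replicate 2 or any 1 library of shHDAC1, shU2AF2 or shZNF384.

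Among the ribosome assembly and cold stress genes, RBM28 and RBM3 rose and RBM19 and RBM34 had no call against shControl. RBM28, a nucleolar protein of the large ribosomal subunit pathway, read 0.25 and 0.23 in shPABPN1 and 0.25 and 0.24 in shU2AF2, against 0.13, 0.12 and 0.12 in shControl. It read 0.16 and 0.17 in shPCBP2, 0.14 and 0.14 in shSF3B4, 0.15 and 0.15 in shZNF384 and 0.1 and 0.12 in shHDAC1. Its level was thus about the same in shPABPN1 and shU2AF2, well clear of every other library, and only the shHDAC1 libraries overlapped shControl.
The difference from shControl was 0.117 in shPABPN1 (SE 0.00801, limma, adjusted p = 0.00011) and 0.122 in shU2AF2 (SE 0.00801, limma, adjusted p = 4.33e-05). Both calls held without any 1 library. The smaller rise in shPCBP2, 0.0417 (limma, adjusted p = 0.048), was lost without any 1 library of shPCBP2, shSF3B4, shU2AF2, shZNF384 or shControl (adjusted p = 0.0756 to 0.255), and with each library centred on its median over the complete genes it shrank to 0.0083 (adjusted p = 0.913). RBM28 was, against the mean of the other 5 knockdowns, higher in shU2AF2 by 0.084 and in shPABPN1 by 0.078, and lower in shHDAC1 by −0.078 and in shSF3B4 by −0.042 (limma, adjusted p = 0.000125, 0.00035, 0.000747 and 0.00581), the last call being lost without either shSF3B4 library (adjusted p = 0.0584 and 0.0627). After centring only the shPABPN1 call of these 4 was left, at 0.13, with adjusted p = 0.0548 for shU2AF2, 0.101 for shHDAC1 and 0.266 for shSF3B4. Its last exon overlaps an exon of AC018635.1 on the opposite strand, and no source used here says whether the authors' processing kept strands apart.

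RBM3, a cold-inducible protein that binds messages and promotes translation, read 0.18 and 0.19 in shPABPN1 and 0.15 and 0.15 in shPCBP2, against 0.1, 0.12 and 0.11 in shControl. The values were 0.13 and 0.14 in shU2AF2, 0.13 and 0.11 in shZNF384, 0.1 and 0.11 in shSF3B4 and 0.1 and 0.1 in shHDAC1. All libraries of shPABPN1, shPCBP2 and shU2AF2 lay above the shControl range. RBM3 rose in shPABPN1 by 0.075 (SE 0.00773, limma, adjusted p = 0.000783) and in shPCBP2 by 0.04 (limma, adjusted p = 0.0492), while the 0.025 of shU2AF2 did not pass (adjusted p = 0.0978). The shPABPN1 call held without any 1 library. That of shPCBP2 was lost without any 1 library of shPCBP2, shHDAC1, shPABPN1, shSF3B4 or shU2AF2 and without shControl replicate 1 or 3 (adjusted p = 0.06 to 0.213), and after centring the difference was 0.0067 (adjusted p = 0.919). RBM3 was also higher in shPABPN1 than in the other 5 knockdowns by 0.063 (limma, adjusted p = 0.000872), and lower in shHDAC1 by −0.039 and in shSF3B4 by −0.033 (limma, adjusted p = 0.00967 and 0.0163). These 2 lower values lost their calls without either library of the knockdown (adjusted p = 0.094 and 0.103 for shHDAC1, 0.064 and 0.184 for shSF3B4) and after centring (adjusted p = 0.426 and 0.283), where the shPABPN1 difference was 0.115. CIRBP, the other cold-inducible RNA-binding protein, stood in the list of other RNA recognition motif genes and averaged 0.235 in shSF3B4 and 0.205 in shU2AF2, against 0.0967 in shControl (limma, adjusted p = 0.00732 and 0.0197). Both calls of CIRBP were lost after centring (adjusted p = 0.152 and 0.234), the first also without the shSF3B4 library numbered 2 (adjusted p = 0.0673) and the other also without shU2AF2 replicate 2 or shControl replicate 2 or 3 (adjusted p = 0.0513 to 0.167).

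RBM19 and RBM34 also act in ribosome assembly. RBM19 read 0.85 and 0.81 in shU2AF2, against 0.73, 1 and 0.98 in shControl, so that the shU2AF2 libraries lie inside the shControl range only because of shControl replicate 1. Its table transcript is a non-coding one of 2 exons in GENCODE. RBM34 was between 0.06 and 0.14 in every library, and its last exon overlaps ARID4B on the same strand.

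Of the 6 RBM genes that act in m6A turnover, nuclear decay or nuclear bodies, RBM33 rose in 3 knockdowns and the other 5 were not called against shControl. It is reported to bind m6A-marked messages and to act with the demethylase ALKBH5. RBM33 read 0.91 and 0.84 in shPABPN1, 0.9 and 0.9 in shPCBP2 and 0.83 and 0.93 in shU2AF2, against 0.62, 0.72 and 0.64 in shControl. The libraries of shZNF384 read 0.87 and 0.79, those of shSF3B4 0.6 and 0.61, and those of shHDAC1 0.56 and 0.59. Thus 8 libraries of 4 knockdowns lay above the whole shControl range, and the 4 libraries of shSF3B4 and shHDAC1 lay below it.
RBM33 rose by 0.215 in shPABPN1, by 0.24 in shPCBP2 and by 0.22 in shU2AF2 (SE 0.0438 each, limma, adjusted p = 0.0255, 0.0411 and 0.0153). The differences of 0.17 in shZNF384, −0.055 in shSF3B4 and −0.085 in shHDAC1 did not pass (limma, adjusted p = 0.117, 0.646 and 0.869). The shPABPN1 call was lost without shPABPN1 replicate 1 or shControl replicate 3 (adjusted p = 0.081 to 0.183), and the shU2AF2 call without shU2AF2 replicate 2 (adjusted p = 0.144). The shPCBP2 call was lost without any 1 library of shPCBP2, shHDAC1, shSF3B4 or shZNF384 and without shControl replicate 1 or 3 (adjusted p = 0.0556 to 0.187). After centring the shPCBP2 and shU2AF2 calls were lost too, at 0.207 and 0.197 (adjusted p = 0.26 and 0.0767). The F-test among the knockdowns gave an adjusted p of 0.00397, and 0.00449 to 0.0182 without any 1 library. Set against the other 5 knockdowns, RBM33 was lower in shHDAC1 by −0.243 and in shSF3B4 by −0.207 (limma, adjusted p = 0.00663 and 0.00968), both lost without either library of the knockdown (adjusted p = 0.0551 and 0.0873 for shHDAC1, 0.0764 and 0.0941 for shSF3B4). The values belong to a transcript of 5 exons whose last exon, on chromosome 7 from 155774993 to 155781485, ends at the annotated end of the gene and overlaps no other gene.

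The genes of that group without such a call were RBM14, RBM15, RBM15B, RBM26 and RBM27. RBM15 and RBM15B, which bring the m6A methyltransferase to RNA, differed in level: RBM15 averaged 0.407 ± 0.0451 and RBM15B 0.14 ± 0.0265 in shControl (SD, n = 3). RBM15 read 0.51 and 0.6 in shPABPN1, against 0.36, 0.41 and 0.45 in shControl, a difference of 0.148 that did not pass (limma, adjusted p = 0.12). It was higher in shPABPN1 than in the other 5 knockdowns by 0.149 (limma, adjusted p = 0.0425), a call lost in 10 of the 15 fits without 1 library, namely either library of shHDAC1, shPABPN1 or shZNF384, the replicate numbered 1 of shSF3B4 or shU2AF2, or replicate 2 of shPCBP2 or shControl (adjusted p = 0.0506 to 0.269). RBM26 and RBM27, zinc finger partners of the poly(A) tail exosome targeting connection, lay between 0.74 and 1 and between 0.71 and 1. RBM26 read 0.87 and 0.74 in shU2AF2, against 0.97, 0.94 and 1 in shControl (−0.165, limma, adjusted p = 0.0722). This was the lowest adjusted p against shControl among RBM genes never called against shControl or by the F-test. RBM26 also read 0.85 and 0.85 in shHDAC1, 0.91 and 0.91 in shPABPN1 and 0.84 and 0.93 in shPCBP2. It read 0.87 and 0.9 in shSF3B4 and 0.83 and 0.96 in shZNF384. All knockdown libraries but shZNF384 replicate 2 thus lay below the shControl range. The F-test among the knockdowns did not call RBM26 (adjusted p = 0.594). RBM14, a paraspeckle protein, read 0.4 and 0.45 in shPABPN1, against 0.41, 0.58 and 0.64 in shControl, where shControl replicate 1 alone overlaps.

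**Figure D4:**
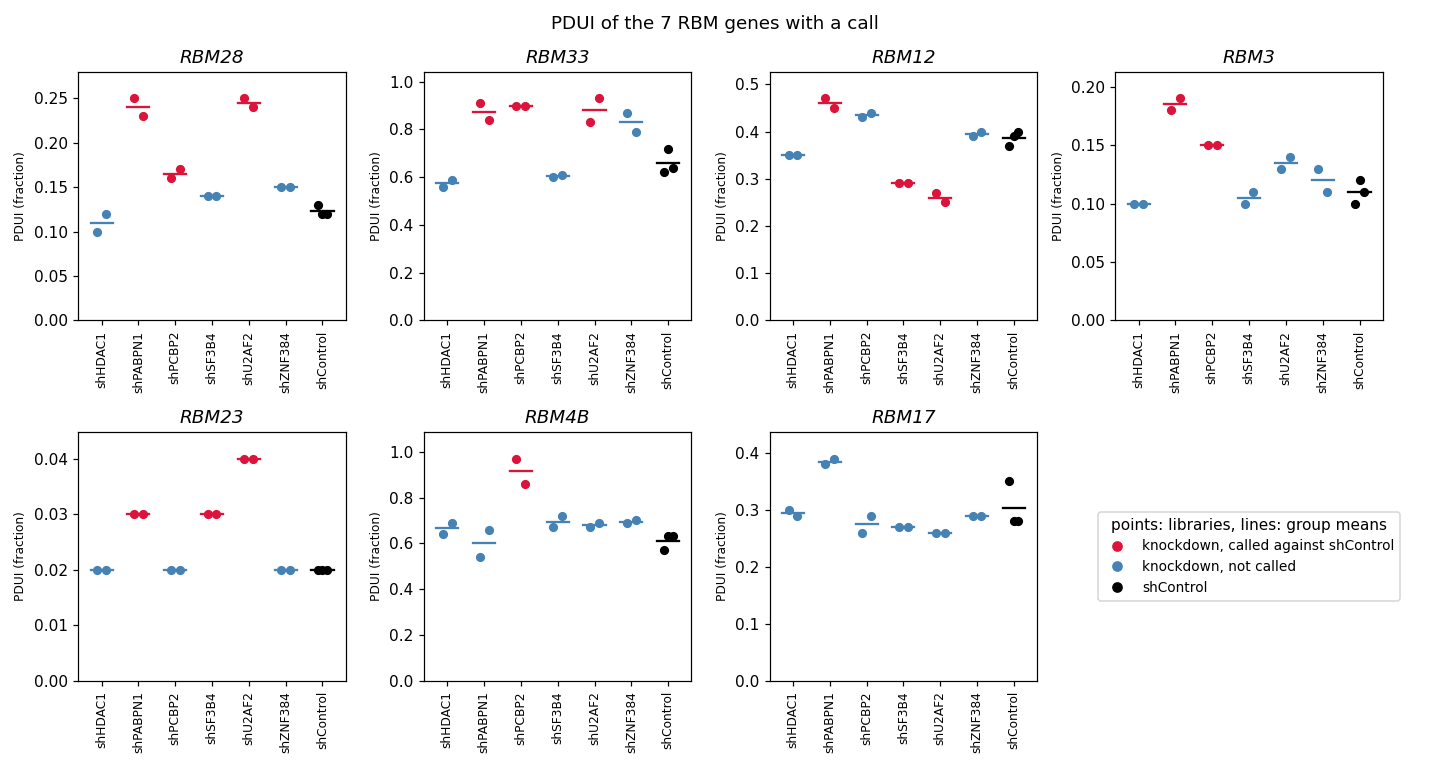
PDUI of the 7 RBM genes with a call, by group, with a point for each library, a line for each group mean and a separate axis starting at 0 for each gene. RBM28 stands at 0.24 in shPABPN1 and 0.245 in shU2AF2, RBM33 is above 0.78 in 4 knockdowns, RBM12 is highest in shPABPN1 and lowest in shU2AF2, RBM4B stands off in shPCBP2 and RBM17 in shPABPN1.

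RBM12 moved in opposite directions. Its molecular role is less defined than that of most RBM proteins. It read 0.47 and 0.45 in shPABPN1, against 0.37, 0.39 and 0.4 in shControl, while it read 0.29 and 0.29 in shSF3B4 and 0.27 and 0.25 in shU2AF2. The remaining values were 0.43 and 0.44 in shPCBP2, 0.39 and 0.4 in shZNF384 and 0.35 and 0.35 in shHDAC1. Libraries of shPABPN1 and shPCBP2 were above the shControl range, those of shHDAC1, shSF3B4 and shU2AF2 below it, and those of shZNF384 within it.
RBM12 rose in shPABPN1 by 0.0733 and fell in shSF3B4 by −0.0967 and in shU2AF2 by −0.127 (SE 0.0123 each, limma, adjusted p = 0.0104, 0.00198 and 0.000286). The 2 falls held without any 1 library, and the rise was lost without shPABPN1 replicate 1 (adjusted p = 0.0765) and after centring (0.095, adjusted p = 0.0558). The differences in shPCBP2 (0.0483), shHDAC1 (−0.0367) and shZNF384 (0.00833) did not pass (limma, adjusted p = 0.138, 0.658 and 0.846). Against the other 5 knockdowns RBM12 was higher in shPABPN1 by 0.114 and lower in shU2AF2 by −0.126 and in shSF3B4 by −0.09 (limma, adjusted p = 0.00046, 0.000131 and 0.00096), and these 3 calls held without any 1 library. It was also higher in shPCBP2 by 0.084 (limma, adjusted p = 0.00903), which was lost without either shPCBP2 library (adjusted p = 0.0713 and 0.127) and after centring (adjusted p = 0.276). The F-test among the knockdowns gave an adjusted p of 0.000126. Its last exon, on chromosome 20 from 35648925 to 35655344, overlaps exons of CPNE1 and AL109827.1 on the same strand, so reads of these genes cannot be told apart there and the value is uncertain.

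The spliceosome and splicing regulator genes, 17 of the 36, had calls for RBM4B and RBM23 against shControl and for RBM17 among the knockdowns. RBM4B, a splicing regulator and close relative of RBM4, read 0.97 and 0.86 in shPCBP2, against 0.57, 0.63 and 0.63 in shControl. It read 0.64 and 0.69 in shHDAC1, 0.54 and 0.66 in shPABPN1, 0.67 and 0.72 in shSF3B4, 0.67 and 0.69 in shU2AF2 and 0.69 and 0.7 in shZNF384. Only the shPCBP2 libraries were above 0.75, and their values were apart from those of all other libraries.
The rise in shPCBP2 was 0.305 (SE 0.0474, limma, adjusted p = 0.0214), and it was lost without shPCBP2 replicate 1 or shControl replicate 1 or 3 (adjusted p = 0.0563 to 0.133) and after centring (0.272, adjusted p = 0.114). Against the other 5 knockdowns RBM4B was higher in shPCBP2 by 0.248 (limma, adjusted p = 0.0235), lost without either shPCBP2 library or shHDAC1 replicate 1 (adjusted p = 0.0503 to 0.224) and after centring (adjusted p = 0.0931). Its F-test among knockdowns (adjusted p = 0.0312) was lost without any 1 of 11 libraries (adjusted p = 0.0503 to 0.161), and after centring (adjusted p = 0.0814), and held without either shPABPN1 library, shPCBP2 replicate 2 or shControl replicate 1. The last exon of RBM4B (chromosome 11, 66664998 to 66665578) overlaps no other gene.

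RBM17, also known as SPF45, takes part in 3' splice site recognition. It read 0.38 and 0.39 in shPABPN1, against 0.35, 0.28 and 0.28 in shControl and between 0.26 and 0.3 in the 10 libraries of the other knockdowns. The shPABPN1 libraries were above all others, and shControl replicate 1 was the highest of the remainder. Against shControl the 0.0817 in shPABPN1 did not pass (limma, adjusted p = 0.0506), but it did without shControl replicate 1 (adjusted p = 0.00142). Against the other 5 knockdowns RBM17 was higher in shPABPN1 by 0.107 (SE 0.0167, limma, adjusted p = 0.00656), lost without shPABPN1 replicate 2 (adjusted p = 0.055). Its F-test (adjusted p = 0.0274) held without any 1 library of shControl or shPCBP2, and was lost without any 1 of the other 10 (adjusted p = 0.0511 to 0.152) and after centring (adjusted p = 0.0827). The last exon, on chromosome 10 from 6115453 to 6117457, overlaps no other gene.

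RBM23 and RBM39, related U2AF-like splicing factors, both had a PDUI of at most 0.05 in every library. The pair of sites behind these low values is not known. RBM23 read 0.04 and 0.04 in shU2AF2, 0.03 and 0.03 in shPABPN1 and in shSF3B4, and 0.02 in all 9 other libraries, shControl included. These are steps of 0.01, the resolution of these values, and no group had any spread. The standard error of 0.0021 therefore comes from the other genes through the pooled fit. RBM23 was called higher in shU2AF2, shPABPN1 and shSF3B4 (limma, adjusted p = 0.000443, 0.0286 and 0.0263). No call was left with libraries centred on their medians, where the differences were −0.0033, 0.0317 and −0.018 (adjusted p = 0.959, 0.512 and 0.737). Centring took a constant off every gene of a library, between −0.064 (shControl replicate 1) and 0.036 (shZNF384 replicate 2). These constants can exceed the RBM23 values of 0.02 to 0.04, so centring cannot decide whether this gene moved. Against the other 5 knockdowns RBM23 was higher in shU2AF2 by 0.016 and lower in shHDAC1 by −0.008 (limma, adjusted p = 0.00077 and 0.0322), and the lower value lost its call without either library of shHDAC1, shPCBP2 or shZNF384, shSF3B4 replicate 2 or shControl replicate 3 (adjusted p = 0.0502 to 0.217). After centring both were lost (adjusted p = 0.848 and 0.96), as was its F-test among the knockdowns (adjusted p = 0.00174 as deposited, 0.227 centred). The shPABPN1 call against shControl was lost without either library of shHDAC1 or shPABPN1 or shControl replicate 2 or 3 (adjusted p = 0.0508 to 0.111), and that of shSF3B4 without either shSF3B4 library or shControl replicate 2 or 3 (adjusted p = 0.0621 to 0.113). RBM39 read 0.05 and 0.04 in shU2AF2 and 0.04 and 0.05 in shSF3B4, against 0.02, 0.04 and 0.03 in shControl, without a call (limma, adjusted p = 0.181 and 0.219).

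RBM5, RBM6 and RBM10 are related regulators of alternative splicing. They stood at different levels in shControl, RBM10 at 0.367 ± 0.0473, RBM5 at 0.19 ± 0.0361 and RBM6 at 0.05 ± 0.03 (SD, n = 3). In GENCODE the table transcript of RBM6 ends 22796 bases before the annotated end of its gene. Those of RBM5 and RBM10 end 0 and 2 bases before theirs, so the levels may not refer to like ends. Over all libraries RBM10 stayed between 0.33 and 0.44 and RBM6 between 0.02 and 0.11. RBM5 read 0.14 and 0.14 in shPABPN1 and between 0.19 and 0.23 in the 10 libraries of the other knockdowns, against 0.15, 0.2 and 0.22 in shControl. Against the other 5 knockdowns it was lower in shPABPN1 by −0.077 (limma, adjusted p = 0.0193), lost without either shPABPN1 library (adjusted p = 0.104 and 0.125) and after centring (−0.025, adjusted p = 0.331), and against shControl the −0.05 did not pass (adjusted p = 0.195). The last exon of RBM5 overlaps SEMA3F-AS1 on the opposite strand. RBM48, a subunit of the minor spliceosome, read 0.22 and 0.2 in shSF3B4, against 0.18, 0.14 and 0.15 in shControl. It was higher in shSF3B4 than in the other 5 knockdowns by 0.065 (limma, adjusted p = 0.0399), which was lost without either library of shSF3B4, shU2AF2 or shZNF384, shHDAC1 replicate 2 or shControl replicate 2 or 3 (adjusted p = 0.0505 to 0.313) and after centring (adjusted p = 0.369).

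The other splicing genes had no call in any comparison. RBM22, a component of the activated spliceosome, lay between 0.68 and 0.9, RBM42 between 0.35 and 0.44, RBMX2 between 0.23 and 0.32, RBM25, a U1 snRNP partner, between 0.08 and 0.12, and RBM11 between 0.4 and 0.6. RBM20, a regulator of titin splicing in heart muscle, did not go below 0.95, and RBM41 was at 1 in all but shU2AF2 replicate 2, which read 0.88. RBMX was between 0.79 and 1 and its retrogene RBMXL1 between 0.52 and 0.79, with RBMX higher in every library. RBMX and RBMXL1 are near-identical in sequence, so reads shared between them may have been split by the authors' counting and both values are uncertain. In GENCODE the table transcripts of RBM11 and RBMX are non-coding, and that of RBM39 retains an intron.

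The 7 genes for message stability and localisation had no call where they were tested, and some of the widest spreads between libraries of 1 group. RBM43 lacked the values to be tested in shPABPN1 and shPCBP2 against shControl, RBM47 in shPCBP2 against shControl, and both in the contrasts among the knockdowns. RBM47, a cofactor of C-to-U editing, read 0.91 and 1 in shU2AF2 and 0.99 and 0.85 in shHDAC1, against 0.7, 0.63 and 0.64 in shControl. These 4 libraries lay above the shControl range, but the differences of 0.298 and 0.263 did not pass (limma, adjusted p = 0.0861 and 0.657). Both shZNF384 libraries, at 0.72 and 0.72, and shPCBP2 replicate 1, at 0.77, also lay above that range. The shSF3B4 libraries read 0.92 and 0.61, and those of shPABPN1 0.69 and 0.61. RBM45 was at 1 in all libraries except both of shHDAC1, at 0.79 and 0.88, and shPCBP2 replicate 1, at 0.79 (shHDAC1 against shControl −0.165, limma, adjusted p = 0.61). RBMS2 read 1 and 1 in shU2AF2 and 0.99 and 0.99 in shPCBP2, against 0.67, 0.96 and 0.87 in shControl. It did not pass (limma, adjusted p = 0.21 and 0.389). Its relative RBMS1 was at 1 throughout, and in GENCODE the table transcript of RBMS1 is non-coding. RBM24 and RBM38, a related pair, lay between 0.24 and 0.85 and between 0.62 and 0.85. RBM43 lay between 0.47 and 0.91 over 13 values, and RBM18, whose role is less defined, between 0.3 and 0.55.

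The partners of these RBM proteins were counted from lists of other genes. Beside each count stands, in parentheses, the share of all tested genes called in the same direction of that comparison. Against shControl, 4 of 24 spliceosome assembly and activation genes (4.26% of all genes) rose in shSF3B4, 4 (5.88% of all) in shU2AF2, 2 (3.99% of all) in shPABPN1, 1 (1.05% of all) in shPCBP2, 1 (1.44% of all) in shZNF384 and none in shHDAC1, and none fell. PLRG1, of the Prp19 complex, averaged 0.835 in shU2AF2, against 0.313 in shControl (limma, adjusted p = 0.000153), and kept its call in every alternative run. SMU1, of the spliceosomal B complex, averaged 0.35 in shPABPN1, against 0.187 in shControl (limma, adjusted p = 0.000188), and this call held without any 1 library and after centring. SMU1 was also called in shPCBP2, shU2AF2 and shZNF384, at 0.3, 0.255 and 0.32 (limma, adjusted p = 0.00798, 0.013 and 0.00634). After centring those calls were lost (adjusted p = 0.413, 0.477 and 0.36).
Of 10 minor spliceosome genes, 1 rose, in shPABPN1 (3.99% of all genes). It was ZMAT5, at 0.025 in shPABPN1, against 0.01 in shControl (limma, adjusted p = 0.0456), a call that held without either shHDAC1 library or shPABPN1 replicate 1, and was lost without any 1 of the other 12 libraries (adjusted p = 0.0568 to 0.225). Of 15 genes of the exon junction complex and nonsense-mediated decay, 3 rose in shSF3B4 (4.26% of all genes), 2 in shU2AF2 (5.88% of all) and 1 in shPABPN1 (3.99% of all), and none fell. PNN, a protein of splicing speckles, averaged 0.275 in shSF3B4, against 0.16 in shControl (limma, adjusted p = 0.000261), a call that held without any 1 library and was lost after centring (adjusted p = 0.0743). It was also called in shU2AF2, at 0.22 (limma, adjusted p = 0.00646), and this call too was lost after centring (adjusted p = 0.471). MAGOHB averaged 0.24 in shPABPN1, against 0.147 in shControl (limma, adjusted p = 0.0042). That call held without any 1 library and after centring (adjusted p = 0.0416). The calls of SAP18 in shSF3B4 and shU2AF2 and of SMG9 in shSF3B4 were lost after centring (adjusted p = 0.584, 0.673 and 0.959).

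Of 12 m6A genes, 1 rose in shSF3B4 (4.26% of all genes), and 1 rose and 1 fell in shU2AF2 (5.88% and 1.39% of all). METTL3, the catalytic subunit of the methyltransferase, averaged 0.2 in shU2AF2 and 0.14 in shSF3B4, against 0.0733 in shControl (limma, adjusted p = 0.0011 and 0.0404). The shU2AF2 call held without any 1 library and after centring. That of shSF3B4 was lost after centring (0.0383, adjusted p = 0.594), without any 1 library of shHDAC1, shPABPN1, shPCBP2, shSF3B4 or shZNF384, and without shControl replicate 1 or 3 (adjusted p = 0.0519 to 0.171). YTHDF3, a cytoplasmic m6A reader, fell in shU2AF2 to 0.725, against 0.977 in shControl (limma, adjusted p = 0.00755), a call lost without shU2AF2 replicate 2 (adjusted p = 0.0565).
Of 9 genes of the exosome adaptors and their cap-binding partners, 2 rose in shPABPN1 (3.99% of all genes), 1 in shPCBP2 (1.05% of all) and 1 in shU2AF2 (5.88% of all), and none fell. MTREX, the helicase of the nuclear exosome, averaged 0.17 in shPCBP2, 0.16 in shPABPN1 and 0.16 in shU2AF2, against 0.0533 in shControl (limma, adjusted p = 0.00452, 0.0013 and 0.000691). Its 3 calls held without any 1 library, and after centring that of shPABPN1 was left, with 0.0833 in shPCBP2 and in shU2AF2 (adjusted p = 0.259 and 0.0538). Of 29 other RNA-binding protein genes, most with RNA recognition motifs, 3 rose in shPABPN1 (3.99% of all genes), 2 in shPCBP2 (1.05% of all), 2 in shSF3B4 (4.26% of all) and 3 in shU2AF2 (5.88% of all). In the same list 2 fell in shSF3B4 (1.16% of all genes), 1 in shU2AF2 (1.39% of all) and 1 in shZNF384 (0.0638% of all). G3BP1, a stress granule protein, averaged 0.58 in shPABPN1, against 0.273 in shControl (limma, adjusted p = 0.00118), a call that held without any 1 library and after centring. It was also called in shPCBP2 and shU2AF2, at 0.515 and 0.41 (limma, adjusted p = 0.0154 and 0.045). After centring those calls were lost (adjusted p = 0.0812 and 0.159).

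In shPABPN1 against the other 5 knockdowns, 2 of the 24 spliceosome genes were higher and 5 lower, where 4.19% and 7.05% of all genes were. Of the 15 exon junction and decay genes 1 was higher and 3 lower in shPABPN1, and of the 29 other RNA-binding protein genes 4 were higher and 3 lower. In shHDAC1 4 of the 24 spliceosome genes were lower and none higher, where 5.29% of all genes were lower. In shSF3B4 4 of these 24 were higher and 2 lower, where 3.59% and 3.39% of all genes were. Of the 15 exon junction and decay genes 3 were higher in shSF3B4 and none lower. Of the 29 other RNA-binding protein genes 2 were higher there and 3 lower. In shU2AF2 1 of the 24, 2 of the 15 and 2 of the 29 were higher, where 4.46% of all genes were. For list calls against the other 5 knockdowns no alternatives were run. Of the 40 calls against shControl in all these lists, 18 held without any 1 library, 13 held after centring, and 1, that of PLRG1, held in every alternative run.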

How the data were processed

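PDUI fractions were used as the authors deposited them, 1 transcript per gene and library. Values of the RBM genes have 2 decimals, and the lowest value over all genes is 0.001. The genome build is hg38 per the submitters' processing notes, with aligner, site caller and annotation release not given in the sources used here. Libraries were grouped by their titles. Titles and library names number the shSF3B4 libraries differently, so their columns were assigned to the group and carry the numbers of the table header. The labels do not say that replicates were separate cultures, so p-values measure only the spread between these samples. Values entered limma 3.58.1 (R 4.3.3) with 1 mean per group over all 15 libraries, and eBayes with a trend; there were 8 residual degrees of freedom and a prior of 1.06. A gene was tested with values in both knockdown libraries and at least 2 shControl libraries, or in all 12 knockdown libraries where shControl was not compared. P-values were two-sided and Benjamini-Hochberg adjusted over all genes tested. The fit was tested on simulated data. The members and gene lists were chosen with earlier results of these data known. All members are accounted for; those called against shControl or among the knockdowns, and preset groups of paralogues, are given in detail. RBM5, RBM15 and RBM48 were added for their calls against the other knockdowns, and other members without a call were named after their values were seen. Alternatives were centring on library medians, an arcsine square root scale, complete genes, genes with spread, a replicate block, 2-group fits and leaving out each library. The end sequence of 1 gene is not reported here.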

Additional observations from a re-analysis of the deposited data

How the results depend on the processing

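Over the calls of RBM genes, and the calls of partner genes against shControl, the alternatives run turned the direction only for RBM23, which with libraries centred on their medians stood at −0.018 in shSF3B4 and −0.0033 in shU2AF2 against shControl. Centring takes 1 value off a whole library, between −0.064 (shControl replicate 1) and 0.036 (shZNF384 replicate 2). For genes with a low PDUI these values can exceed the differences tested, so centring cannot decide there whether a gene moved. After centring 3 calls were left against shControl in shPABPN1, 0 in shPCBP2, 1 in shSF3B4 and 2 in shU2AF2. Against the other 5 knockdowns 1 call was left in shHDAC1, 0 in shPCBP2, 2 in shSF3B4 and 1 in shU2AF2. On the arcsine square root scale there were 2 in shPCBP2 against shControl and 1 in shZNF384 against the other 5. Without genes that had no spread in any group there were 3 in shPABPN1, 1 in shPCBP2 and 1 in shSF3B4 against shControl, and 1 in shPCBP2 against the other 5. With only the 2 groups in the fit, and so fewer degrees of freedom, there were 0 in shPABPN1, 0 in shPCBP2 and 0 in shSF3B4. With the replicate number as a block there were 3 in shPABPN1, 0 in shPCBP2 and 1 in shSF3B4 against shControl. Against the other 5 there was 1 in shPCBP2. The difference of replicate 1 minus replicate 2 over the complete genes correlated between groups at r = −0.036 to 0.047 over the 21 pairs of groups. That check leaves out shControl replicate 3 and shifts of whole libraries, and the shSF3B4 numbers are those of the table header. Whether same-numbered libraries shared a preparation was not tested. When each library was left out in turn, calls against shControl were 2 to 8 in shPABPN1, 0 to 3 in shPCBP2, 1 to 2 in shSF3B4, 4 to 6 in shU2AF2 and 0 in shHDAC1 and shZNF384. Against the other 5 they were 1 to 5 in shHDAC1, 4 to 7 in shPABPN1, 0 to 3 in shPCBP2, 1 to 7 in shSF3B4, 3 to 5 in shU2AF2 and 0 to 1 in shZNF384, and among the knockdowns 5 to 10. Of the 15 calls against shControl, 2 held under every alternative run, RBM28 and RBM12 in shU2AF2. The cause of the other changes was not tested. The share of all genes called was not counted in these alternatives, so the RBM counts have no background there. The depth behind each PDUI value is unknown, and leaving 1 library in a group assumes that it varies like the other groups. The alternatives for partner genes were added after seeing the data.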
